A study of Mus musculus with 33 samples.

Results

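The absence of HP1α on top of that of HP1β and HP1γ was examined by setting the 3 RNA-seq libraries of *Hp1α/β/γΔ/Δ* cells against the 3 libraries of *Hp1β/γΔ/Δ* ESCs, 6 of the 33 libraries of mouse embryonic stem cells (ESCs) in the series. The members were chosen by genotype label, and their estimated counts were joined by Ensembl identifier. *Hp1α/β/γΔ/Δ* cells lack HP1β, HP1γ and HP1α, and *Hp1β/γΔ/Δ* ESCs lack HP1β and HP1γ and keep Hp1α, all on the C57BL/6 strain, so the deletions of Hp1β and Hp1γ are shared. The triple mutant was made from *Hp1α/βΔ/Δ* ESCs with a floxed Hp1γ allele by transient Cre and harvested after 72 h, whereas the *Hp1β/γΔ/Δ* ESCs were an established CRISPR/Cas9 line, and the labels do not say how many clones were used. ESCs were grown in serum and LIF on inactivated mouse embryonic fibroblasts, most of which were removed by plating before harvest, and no other treatment is labelled. Time after the last deletion, transfection and clone therefore go with the genotype and cannot be told apart from it. The study's methods call the replicates of every sample biological and describe independent experiments for the triple mutant, but the labels do not tie them to separate cultures, so p-values measure the spread between these samples, which may be technical.

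HP1 proteins bind methylated lysine 9 of histone H3 through a chromo domain and bind each other and partner proteins through a chromoshadow domain. The family is HP1α (encoded by *Cbx5*), HP1β (*Cbx1*) and HP1γ (*Cbx3*), and is known for heterochromatin and for the repression of genes and repeats together with H3K9 methyltransferases such as SETDB1. ESCs keep a pluripotent state through OCT4, SOX2 and NANOG, in which germline and lineage genes are largely silent.

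The HP1α alleles were cut with a pair of guide RNAs, shown because HP1α is the only paralog in which the genotypes compared differ. The 20-base protospacers, 5′ to 3′, are those listed by the study, all in lower case as no part is marked. Neither matched a transcript of GENCODE M21 on either strand, and their place in the genome was not searched here.
HP1α upstream guide: ctcgccagttctgccgagat
HP1α downstream guide: ggctgagtgagaactagtag

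Because the genotypes stand in tables with different wild-type libraries, those were read as well. Wild-type set A shares its table group with *Hp1α/β/γΔ/Δ* cells and with the *Hp1αΔ/Δ* single mutant, and wild-type set B shares its table group with *Hp1β/γΔ/Δ* ESCs, each with 3 libraries labelled wild-type C57BL/6. Counting differed between the tables. Of 55487 genes, 20297 were at 0 in all libraries of both table groups, 1978 in those of set A alone and 4146 in those of set B alone, and these 26421 genes were set aside, which left 29066. Of the genes at 0 with set B, 1722 had counts in triple mutant libraries only and 14 had at least 10 counts in each of them. Totals ran from 17330936 to 21351305 counts in *Hp1α/β/γΔ/Δ* libraries, with 24975 to 25576 genes detected, and from 22611958 to 25743149 counts in *Hp1β/γΔ/Δ* libraries, with 23721 to 24108 genes detected. Levels are given as CPM, counts scaled to library size with TMM factors over 27 libraries together. All 8 ESC markers read had a mean of at least 1 CPM in every group. Their summed level was 1312 to 1345 CPM in *Hp1α/β/γΔ/Δ* cells, 3402 to 3465 in *Hp1β/γΔ/Δ* ESCs, 3117 to 3179 in set A and 3076 to 3095 in set B. Most of the gap between the mutant sums came from *Tdgf1*, and *Esrrb* and *Zfp42* of the same 8 were higher in the triple mutant (values below). The 10 feeder fibroblast markers summed to 8.69 to 9.39 CPM in *Hp1α/β/γΔ/Δ* cells and 28.1 to 30.5 CPM in *Hp1β/γΔ/Δ* ESCs, with the fibroblast gene *Fap* at 0 in every group.

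*Cbx5*, on chromosome 15 of GRCm38 (103191544 to 103239816), had 267, 269 and 277 CPM in *Hp1α/β/γΔ/Δ* libraries and 459, 470 and 448 CPM in *Hp1β/γΔ/Δ* libraries. The groups did not overlap, and the log2 fold change was −0.69 (SE 0.028), under the fold threshold. Its mean was 485 CPM in wild-type set A, 452 in set B and 178 CPM in *Hp1αΔ/Δ* ESCs, so that *Cbx5* RNA was reduced but present in the triple mutant, and which part of the transcript is left cannot be read from these counts. *Cbx1* had 42.0 to 47.7 CPM against 67.5 to 69.0 CPM, and *Cbx3* 59.1 to 64.1 CPM against 63.1 to 67.7 CPM, with log2 fold changes of −0.55 and −0.01. Both stood far below the wild-type means, of 440 and 388 CPM for *Cbx1* and 177 CPM in both sets for *Cbx3*. Thus the shared deletions showed in both genotypes, and the groups overlapped for *Cbx3*.

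Of 17858 genes tested, 4291 were higher and 3292 lower in *Hp1α/β/γΔ/Δ* cells than in *Hp1β/γΔ/Δ* ESCs (24.0% and 18.4%). The counts of every list below are read beside these shares. The thresholds were an adjusted p (edgeR's quasi-likelihood F-test, Benjamini-Hochberg) below 0.05 together with more than a 2-fold change, and only a gene that passed both is said to have risen or fallen. On the adjusted p alone 14710 genes passed (82.4%). All *Hp1α/β/γΔ/Δ* libraries lay above all *Hp1β/γΔ/Δ* libraries for 8542 of the 29066 genes left (29.4%) and below them for 8593 (29.6%). The plot of all genes tested shows that rises outnumbered falls at low levels. Among genes with a mean under 1 CPM, 45.5% rose and 15.8% fell, and among those with at least 100 CPM the shares were 11.1% and 16%. Long intergenic non-coding RNAs rose in 271 of 586 cases (46.2%) and fell in 117 (20%), against 20.9% and 18.1% of protein-coding genes. Genes at low levels can reach the test through the group in which they are higher. Levels were not matched between these classes, so their shares are descriptions only.

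The wild-type sets, which carry the same label, differed in 828 of 15929 genes (5.20%). Their difference was removed with the contrast of (*Hp1α/β/γΔ/Δ* minus set A) against (*Hp1β/γΔ/Δ* minus set B), called the set-adjusted contrast below. It had 3541 genes higher and 2794 lower among 18323 (19.3% and 15.2%, or 34.6% either way). It held 3113 of the 4291 rises (72.5%) and 2396 of the 3292 falls (72.8%), and 43 genes were called in opposite directions. Loss of HP1α from wild-type cells, read in *Hp1αΔ/Δ* ESCs against set A, went with 246 rises and 505 falls among 15765 genes (1.56% and 3.20%, or 4.76% either way, and 44.9% on the adjusted p alone). Of these 751 genes, 156 were called the same way and 279 the opposite way between *Hp1β/γΔ/Δ* and *Hp1α/β/γΔ/Δ* cells, which are separate lines. Tested directly, over 12 libraries with none shared between the arms, the difference between lines with and without HP1α itself differed between the backgrounds for 7067 of 18288 genes (38.6%), being higher in the Hp1β/γ-null background for 4103 (22.4%) and lower for 2964 (16.2%), and 70.8% passed on the adjusted p alone. This test does not remove the difference between the wild-type sets, and its arms also differ in the Cre transfection. In bulk RNA, fewer cells of a type and less RNA per cell cannot be told apart in any of these results.

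**Figure D1:**
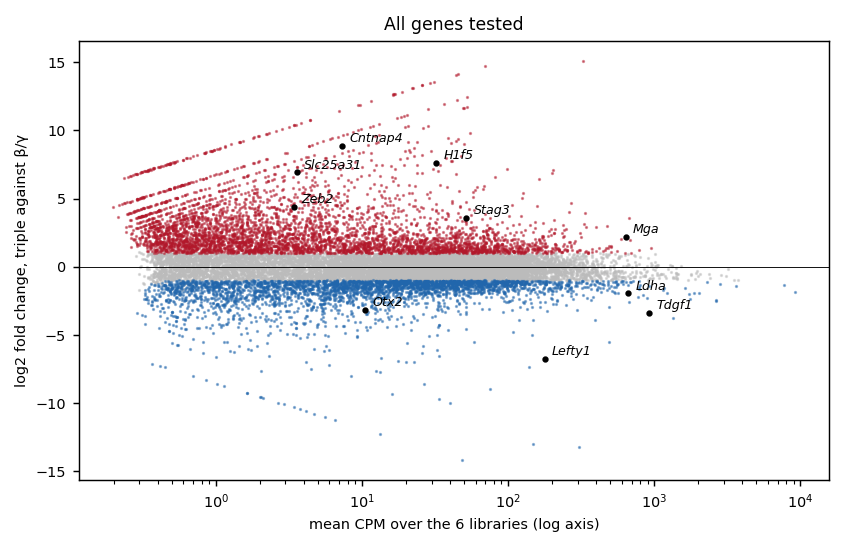
Log2 fold change in *Hp1α/β/γΔ/Δ* cells against *Hp1β/γΔ/Δ* ESCs (y axis) over the mean CPM of the 6 libraries (x axis, log scale), 1 point for each of 17858 genes, red for the 4291 that rose, blue for the 3292 that fell and grey for the rest. The rows of points at the upper left are genes with 0 or few counts in *Hp1β/γΔ/Δ* libraries, whose fitted fold is not a measured bound, and *Tdgf1* and *Lefty1* stand out among the falls of well-expressed genes.

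*Nodal* signalling carried the deepest falls among the lists of genes examined. *Nodal* is a TGF-β family ligand that acts through activin receptors with the co-receptor CRIPTO, and its target genes include its own inhibitors. All 7 genes read were tested, of which 6 fell and none rose, with a median log2 fold change of −3.37 against 0.02 over all genes. In the set-adjusted contrast all 7 fell, with a median of −3.31. The ligand *Nodal* (chromosome 10, 61417972 to 61425338) had 24.4, 25.7 and 23.7 CPM in *Hp1α/β/γΔ/Δ* libraries and 81.0, 78.6 and 83.6 CPM in *Hp1β/γΔ/Δ* libraries. Its log2 fold change was −1.66 (SE 0.05, adjusted p = 1.53e-14 by edgeR's quasi-likelihood F-test after Benjamini-Hochberg adjustment), and every triple mutant library lay below every *Hp1β/γΔ/Δ* library.

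The co-receptor gene *Tdgf1* (chromosome 9, 110939603 to 110946158) had 152, 155 and 160 CPM against 1711, 1658 and 1701 CPM. Its log2 fold change was −3.37 (SE 0.027, adjusted p = 2.76e-21 by edgeR's test with the same adjustment). In the wild-type sets it had 985 and 1023 CPM, so *Hp1β/γΔ/Δ* ESCs lay above wild type and *Hp1α/β/γΔ/Δ* cells below it.

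The secreted *Nodal* inhibitors changed most. *Lefty1* (chromosome 1, 180935022 to 180938400) had 2.61, 3.27 and 3.53 CPM in *Hp1α/β/γΔ/Δ* libraries and 344, 354 and 363 CPM in *Hp1β/γΔ/Δ* libraries, close to the wild-type means of 330 and 305 CPM. Its log2 fold change was −6.74 (SE 0.062, adjusted p = 1.11e-20 by the same edgeR test and adjustment) and −6.85 in the set-adjusted contrast. Its neighbour and paralog *Lefty2* had 8.87, 8.16 and 7.95 CPM against 289, 279 and 284 CPM, a log2 fold change of −5.02. How reads were split between these similar genes is not known, and both fell. *Skil*, a SMAD co-repressor and feedback target, fell by 1.44 on the log2 scale. *Smad7*, the inhibitory SMAD, had a log2 fold change of −0.88 and was called lower in the set-adjusted contrast alone (−1.08).

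The same genes moved little when HP1α was lost from wild-type cells. In *Hp1αΔ/Δ* ESCs the log2 fold change was −0.55 for *Lefty1*, −0.25 for *Tdgf1* and −0.33 for *Nodal*, and *Lefty2* alone passed the thresholds (−1.02). The difference between the backgrounds was −6.18 for *Lefty1* and −3.11 for *Tdgf1*, with adjusted p of 3.84e-26 and 8.54e-27 by edgeR's quasi-likelihood F-test after Benjamini-Hochberg adjustment.

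**Figure D2:**
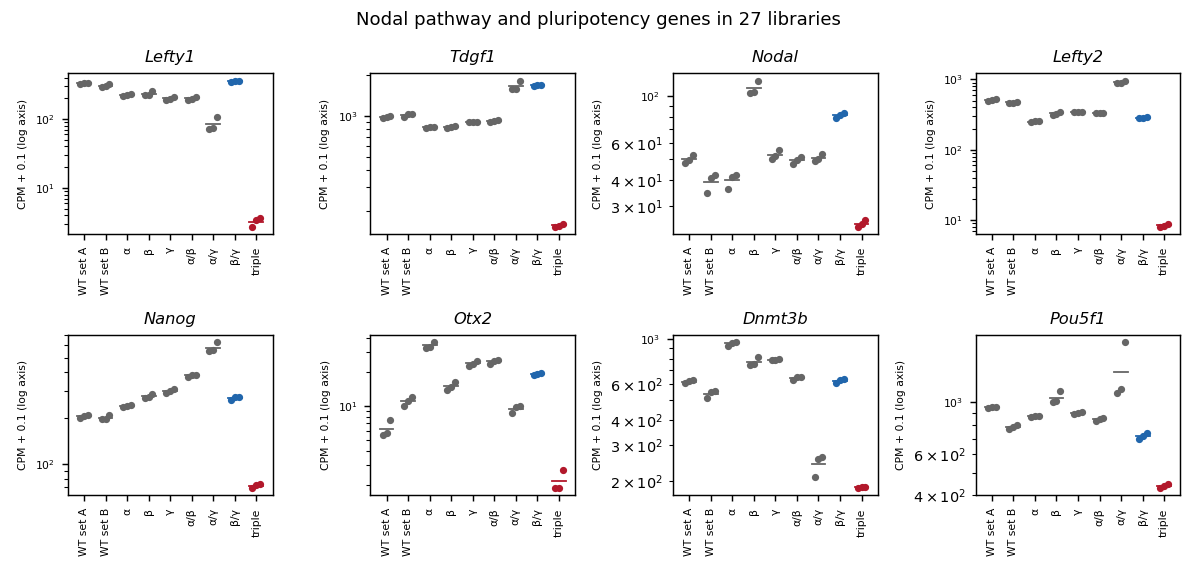
CPM plus 0.1 on log axes in 27 libraries of 9 groups, 1 point for each library and a line at the group mean, for 4 *Nodal* pathway genes (*Lefty1*, *Tdgf1*, *Nodal*, *Lefty2*) and 4 pluripotency genes (*Nanog*, *Otx2*, *Dnmt3b*, *Pou5f1*), with *Hp1β/γΔ/Δ* in blue and *Hp1α/β/γΔ/Δ* in red. The red points are the lowest in all 8 panels, and in the *Otx2* panel *Hp1αΔ/Δ* ESCs are the highest.

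Pluripotency genes were divided. Of 25 core and naive genes, all tested, 8 fell and 3 rose, with a median log2 fold change of −0.35. *Nanog*, a core factor (chromosome 6, 122707489 to 122714633), had 69.0, 71.9 and 73.0 CPM against 275, 264 and 274 CPM, a log2 fold change of −1.86 (SE 0.035). *Pou5f1*, which encodes OCT4, had 429, 445 and 438 CPM against 695, 715 and 739 CPM, without overlap but under the fold threshold (−0.64). *Sox2* had 115, 117 and 116 CPM against 247, 252 and 249 CPM, a log2 fold change of −1.04 that was −0.92 and not called in the set-adjusted contrast. The growth factor gene *Fgf4* fell by 1.65 on the log2 scale and the alkaline phosphatase gene *Alpl* by 1.41.

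Other naive genes kept or exceeded their level. *Esrrb*, a nuclear receptor gene, had 371, 376 and 377 CPM in *Hp1α/β/γΔ/Δ* libraries and 219, 223 and 216 CPM in *Hp1β/γΔ/Δ* libraries (0.85, and 1.01 and called in the set-adjusted contrast). *Zfp42*, the marker REX1, had 57.0, 61.4 and 59.1 CPM against 42.7, 43.0 and 40.2 CPM, a log2 fold change of 0.56 under the threshold. *Dppa3*, the maternal factor STELLA, had 65.2, 63.5 and 65.8 CPM against 16.3, 15.0 and 15.2 CPM and rose by 2.13. The F-box gene *Fbxo15* rose by 1.52. Thus in the same libraries *Nanog* and *Tdgf1* lay below, and *Esrrb* and *Dppa3* above, every *Hp1β/γΔ/Δ* library.

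Genes of the formative and primed states, which mark the exit from naive pluripotency, fell more evenly, as 7 of 10 fell and none rose (median −1.85). The homeobox gene *Otx2* had 2.57, 1.76 and 1.78 CPM against 19.4, 18.8 and 18.9 CPM, a log2 fold change of −3.15 (SE 0.13). The growth factor gene *Fgf5* had 0.214 to 0.332 CPM against 3.57 to 3.88 CPM (−3.69), and the POU factor gene *Pou3f1* 7.50 to 8.40 CPM against 59.6 to 62.7 CPM (−2.87). *Dnmt3b*, a de novo DNA methyltransferase, had 185, 188 and 187 CPM against 627, 635 and 608 CPM (−1.67). The zinc finger gene *Zic2* and the forkhead gene *Foxd3* fell by 2.04 and 1.64. *Sox3* did not pass (0.32). In wild-type cells the loss of HP1α went the opposite way for 4 of these genes, with rises of 2.47 for *Otx2*, 2.05 for *Fgf5*, 1.21 for the Wnt effector gene *Lef1* and 1.0 for *Pou3f1*. The difference between the backgrounds was −5.61 for *Otx2* and −5.74 for *Fgf5* (adjusted p = 1.3e-18 and 2.72e-10 by edgeR's quasi-likelihood F-test after Benjamini-Hochberg adjustment).

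Among other signalling lists, no Wnt target rose and 4 of 7 tested fell (median −1.95), among them the transcription factor genes *Sp5* (−2.85) and *Tcf7* (−1.95), while *Axin2*, a feedback inhibitor of the pathway, did not pass (−0.40). Of 6 FGF-ERK feedback genes 3 fell and 1 rose. The ETS factor gene *Etv5* had 91.3, 95.8 and 91.6 CPM against 334, 334 and 339 CPM (−1.79), the ERK phosphatase gene *Dusp6* fell by 1.76, and the immediate early gene *Egr1* rose by 1.17. Of 6 BMP genes the ligand gene *Bmp4* rose (20.6, 20.3 and 20.5 CPM against 6.67, 6.40 and 7.80 CPM, 1.62) and its target *Id4* fell (−1.22). In the set-adjusted contrast *Egr1* was no longer called and *Id1* and *Smad6* were called lower.

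Glycolytic genes and other targets of hypoxia-inducible factor fell together. Of 13 genes 11 fell and none rose, with a median log2 fold change of −1.95, and 11 fell in the set-adjusted contrast with a median of −1.62. *Ldha*, lactate dehydrogenase A, had 262, 265 and 257 CPM against 1038, 1069 and 1079 CPM, a log2 fold change of −1.95 (SE 0.026, adjusted p = 9.19e-19 by edgeR's quasi-likelihood F-test after Benjamini-Hochberg adjustment). *Aldoa*, an aldolase, fell by 2.27, and *Eno1*, an enolase, had 759, 779 and 747 CPM against 2944, 2984 and 3023 CPM (−1.90). *Pdk1*, the kinase that restrains pyruvate dehydrogenase, had 30.6, 34.0 and 30.3 CPM against 181, 180 and 179 CPM (−2.44). Every one of these 4 genes had groups far apart, and in *Hp1αΔ/Δ* ESCs their log2 fold changes were 0.05 to 0.34. The mitophagy receptor gene *Bnip3* fell by 2.89. The glucose transporter genes differed, as *Slc2a1* fell by 2.43 and *Slc2a3* had a log2 fold change of −0.69 and one of −0.06 in the set-adjusted contrast. The wild-type sets themselves differed in this list in part, as *Eno1* had 2263 CPM in set A and 3463 CPM in set B, so the set-adjusted values are the smaller.

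Germline genes were the list with the most rises. The list holds 20 genes of meiosis, spermatogenesis and piRNA defence, which promoter DNA methylation and the PRC1.6 complex are known to silence in ESCs. Of the 19 tested, 13 rose and 1 fell, with a median of 1.73, and the same counts were found in the set-adjusted contrast. Genes near 0 in *Hp1β/γΔ/Δ* ESCs, such as *Slc25a31*, reached the test through the triple mutant libraries, so the count of rises is a description. All triple mutant libraries lay above all *Hp1β/γΔ/Δ* libraries for 17 of the 20 genes and below them for 1, against 29.4% and 29.6% over all genes. The promoters of 4 genes are printed because 2 germline genes that rose and 1 that stood level share letters of the E-box, and because *Ldha* fell with its list. Windows run from 250 bases before to 50 after the RefSeq start on GRCm38.p6, 5′ to 3′ along the gene, and capitals mark the matches. In the germline genes these are the E-box CACGTG, bound by MGA and MAX, and GCGGGAA, a letter pattern of E2F6 sites (TTCCCGC on the other strand). In *Ldha* they are ACGTG, the core of hypoxia response elements, which is contained in CACGTG. Both strands were searched.
Slc25a31, chr3:40708621-40708920, plus strand: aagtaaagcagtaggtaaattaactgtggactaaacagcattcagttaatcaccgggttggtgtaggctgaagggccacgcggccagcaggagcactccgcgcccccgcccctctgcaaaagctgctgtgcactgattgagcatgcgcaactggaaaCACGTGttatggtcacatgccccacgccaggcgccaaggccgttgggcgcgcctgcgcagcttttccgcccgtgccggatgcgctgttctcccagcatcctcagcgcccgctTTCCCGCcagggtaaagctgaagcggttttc
Stag3, chr5:138280259-138280558, plus strand: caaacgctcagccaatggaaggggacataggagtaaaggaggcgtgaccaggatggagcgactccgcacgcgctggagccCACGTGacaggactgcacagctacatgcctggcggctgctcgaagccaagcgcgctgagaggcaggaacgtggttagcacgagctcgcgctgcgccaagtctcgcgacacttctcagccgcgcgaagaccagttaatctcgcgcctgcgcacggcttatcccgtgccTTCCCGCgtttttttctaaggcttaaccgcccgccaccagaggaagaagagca
Mael, chr1:166238695-166238994, minus strand: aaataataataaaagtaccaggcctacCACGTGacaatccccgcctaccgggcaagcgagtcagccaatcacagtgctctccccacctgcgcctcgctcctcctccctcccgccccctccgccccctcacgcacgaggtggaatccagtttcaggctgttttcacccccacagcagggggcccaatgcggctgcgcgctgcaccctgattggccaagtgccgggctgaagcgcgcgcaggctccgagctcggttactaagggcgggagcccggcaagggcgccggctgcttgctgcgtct
Ldha, chr7:46845554-46845853, plus strand: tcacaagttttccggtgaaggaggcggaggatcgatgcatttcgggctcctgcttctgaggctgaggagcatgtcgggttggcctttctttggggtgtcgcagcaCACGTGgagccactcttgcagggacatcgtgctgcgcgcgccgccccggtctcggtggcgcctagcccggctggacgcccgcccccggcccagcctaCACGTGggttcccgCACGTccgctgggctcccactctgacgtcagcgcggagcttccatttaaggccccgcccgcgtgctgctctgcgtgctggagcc

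The E-box stood in a promoter window of 11 of the 18 germline genes with a RefSeq window (61.1%), against 8.09% of 27025 genes, and GCGGGAA in 6 of 18 (33.3%) against 5.29%. ACGTG stood in windows of 8 of 11 hypoxia and glycolysis genes (72.7%) against 21.8% of all genes. The share was not particular to that list. ACGTG also stood in 15 of 18 germline genes (83.3%), 4 of 6 formative and primed genes (66.7%) and 0 of 2 *Nodal* signalling genes with a window. The E-box stood in 3 of 6 formative and primed genes (50%). A further RefSeq window of *Ldha*, not printed, held no match. A match is a description of the letters only. The windows of *Syce1*, *Sohlh2* and *Tex101*, which rose, held neither CACGTG nor GCGGGAA, nor did that of *Sycp2*, which fell. *Slc25a31*, the germ cell ADP/ATP carrier, had 5.96, 6.93 and 8.42 CPM in *Hp1α/β/γΔ/Δ* libraries and 0, 0.131 and 0.0388 CPM in *Hp1β/γΔ/Δ* libraries, a log2 fold change of 6.93 (SE 0.38). *Stag3*, the meiotic cohesin subunit, had 98.5, 97.1 and 91.1 CPM against 8.60, 8.41 and 7.72 CPM, a log2 fold change of 3.61 (SE 0.061, adjusted p = 1.31e-17 by edgeR's quasi-likelihood F-test after Benjamini-Hochberg adjustment). In wild-type cells these genes were low (0.421 and 0.321 CPM for *Slc25a31*, 13 and 15.4 CPM for *Stag3*), and *Hp1β/γΔ/Δ* ESCs lay below both wild-type means. The same order held for *Taf7l*, a germ cell TFIID subunit (9.94 to 12.2 CPM against 0.305 to 0.615 CPM, 4.78), and for *Sohlh2*, a germ cell bHLH factor (23.0 to 26.4 CPM against 3.27 to 3.41 CPM, 2.93). *Syce1* and *Sycp1*, of the synaptonemal complex, rose by 3.67 and 3.17, and the axis gene *Hormad1* by 2.96.

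A second set of germline genes was already raised in *Hp1β/γΔ/Δ* ESCs. *Mael*, a piRNA pathway gene whose promoter also holds an E-box, had 16.4, 19.3 and 17.7 CPM against 19, 17.3 and 18.1 CPM (0.04), with 3.75 CPM in set B. The piRNA helicase gene *Mov10l1* had 15.7, 18.6 and 15.9 CPM against 15.5, 15.5 and 15.3 CPM (0.18), with 1.94 CPM in set B. The groups overlapped in both genes. *Sycp2*, an axis protein of the synaptonemal complex, had 2.28 to 2.49 CPM against 6.21 to 7.42 CPM and was the list's fall (−1.45), while it lay 1.81 above set A in the triple mutant and 3.70 above set B in *Hp1β/γΔ/Δ* ESCs on the log2 scale. *Tex101*, a germ cell surface glycoprotein, was above wild type in both genotypes and rose further (1.73). In *Hp1αΔ/Δ* ESCs no germline gene tested rose and *Sycp1* fell (−1.58).

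**Figure D3:**
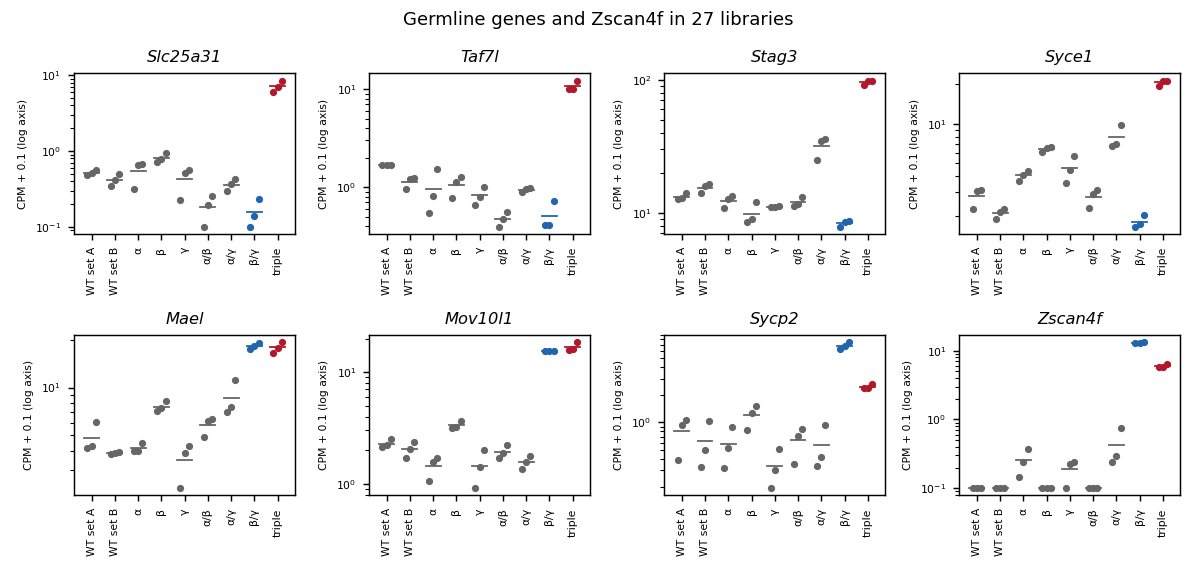
CPM plus 0.1 on log axes in 27 libraries of 9 groups, 1 point for each library and a line at the group mean, for 7 germline genes and *Zscan4f*, with *Hp1β/γΔ/Δ* in blue and *Hp1α/β/γΔ/Δ* in red. *Slc25a31*, *Taf7l*, *Stag3* and *Syce1* are highest in the triple mutant alone, whereas *Mael*, *Mov10l1*, *Sycp2* and *Zscan4f* are above both wild-type sets in red and blue points.

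Of 13 PRC1.6 genes 1 rose and 1 fell, against 24.0% and 18.4% of all genes. *Mga*, which encodes the MAX partner of the complex, had 1023, 1011 and 1089 CPM against 250, 237 and 229 CPM, a log2 fold change of 2.19 (SE 0.035), and *Wdr5*, a WD40 scaffold subunit, had 70.5, 67.1 and 67.2 CPM against 174, 175 and 177 CPM (−1.29). The subunit genes *L3mbtl2*, *Pcgf6* and *E2f6* did not pass (0.11, −0.48 and 0.83). Of the genes of DNA methylation, the maintenance enzyme gene *Dnmt1* had 175, 166 and 167 CPM against 346, 361 and 341 CPM, just under the threshold (−0.98), and the oxidase gene *Tet3* rose by 1.65. Among H3K9 methyltransferases *Setdb1* had a log2 fold change of −0.22, *Setdb2* rose (1.18) and the GLP gene *Ehmt1* fell (56.2, 51.1 and 48.8 CPM against 119, 114 and 117 CPM, −1.10). Of 8 SETDB1 cofactor, HUSH and ATRX-DAXX genes, the HUSH subunit gene *Pphln1* fell (−1.56). Of 12 PRC2 genes *Phf1* rose (1.49), and the other 11 did not pass.

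The 2-cell-like genes, which mark a rare ESC state akin to the early embryo, were lower in *Hp1α/β/γΔ/Δ* cells in 10 of 12 cases and higher in 1. *Zscan4f* had 5.74, 5.65 and 6.32 CPM against 13.4, 12.7 and 12.9 CPM (−1.06), yet was at 0 in all libraries of both wild-type sets. *Zfp352*, a zinc finger gene, had 0.569 to 1.2 CPM against 3.30 to 4.04 CPM (−2.07) and was also at 0 in both sets. So both genotypes stood above wild type, *Hp1β/γΔ/Δ* ESCs more so, and no gene of the list was called in the set-adjusted contrast, in which a difference of groups at 0 enters. The rise was that of *Duxf3*, a homeobox gene of the Dux array, with 1.11, 0.854 and 1.13 CPM against 0.615, 0.784 and 0.233 CPM (1.01), and it was lost under 8 alternatives, among them the omission of *Hp1β/γΔ/Δ* library 3 (0.61). Reads of the Zscan4, Usp17 and Tcstv copies can be split among near-identical genes, and their single values are uncertain.

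Lineage lists did not move as wholes, and their counts are read beside rises in 24.0% and falls in 18.4% of all genes. Of 16 endoderm genes tested 6 rose and 4 fell (median 0.62). Factors of early endoderm rose, as *Gata4* had 9.22, 8.68 and 9.24 CPM against 1.45, 1.26 and 1.55 CPM (2.73). *Gata6* and *Sox17* rose by 3.61 and 3.39 from below 0.3 CPM. The basement membrane genes *Lamb1* and *Col4a1* and the endocytic adaptor gene *Dab2*, of the same list, fell (−1.12, −1.14 and −1.69). Of 9 mesoderm genes 2 rose and 4 fell. The Brachyury gene T had 0.214, 0.142 and 0.194 CPM against 5.53, 6.01 and 6.40 CPM (−4.91), and *Eomes*, another T-box gene, 2.32 to 3.94 CPM against 11.1 to 12.7 CPM (−1.83). Both factors lie downstream of *Nodal* in the embryo, and T stood 3.58 above set B in *Hp1β/γΔ/Δ* ESCs on the log2 scale. Of 9 neural genes 5 rose and 3 fell, with *Zic1* at 1.54 to 1.76 CPM against 0.0388 to 0.0439 CPM (5.18) and the neuronal tubulin gene *Tubb3* at 28.2 to 30.7 CPM against 88.3 to 98.7 CPM (−1.62). Of 12 trophectoderm genes 2 rose and 3 fell, with the keratin gene *Krt8* at 118 to 126 CPM against 427 to 437 CPM (−1.76, and −1.0 and not called in the set-adjusted contrast).

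Among epithelial and mesenchymal genes 3 of 10 rose and 2 fell, near the shares over all genes (24.0% and 18.4%). The repressor genes *Zeb2*, *Snai2* and *Zeb1* rose by 4.39, 2.70 and 1.97, *Zeb2* from 0.271 to 0.351 CPM to 6.32 to 6.74 CPM. The adhesion gene *Epcam* had 121, 121 and 126 CPM against 423, 419 and 420 CPM (−1.71), while the E-cadherin gene *Cdh1* did not pass (−0.49). Beside these, 5 of the 6 feeder fibroblast genes tested fell, with *Thy1* at 1.01 to 1.5 CPM against 11.5 to 13.5 CPM, and the collagen gene *Col3a1* rose (2.5). The part of fibroblast RNA in these results was not tested.

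No imprinted gene rose and 7 of 16 fell (median −0.58). *Meg3* and *Rian*, non-coding RNAs expressed from the maternal allele of the *Dlk1* domain, had 60.3, 62.3 and 60.7 CPM against 334, 336 and 339 CPM (−2.39) and 47.2, 47.9 and 50.4 CPM against 313, 306 and 307 CPM (−2.60). *Peg10*, a retrotransposon-derived gene expressed from the paternal allele, had 59.0, 61.8 and 62.5 CPM against 364, 370 and 370 CPM (−2.52), with 339 and 329 CPM in the wild-type sets. Falls thus occurred on both parental kinds, while *Snrpn*, *Ndn* and *Peg3* had log2 fold changes of −0.16, −0.02 and 0.08. *H19* had 11.8 to 13.3 CPM against 49.1 to 52.3 CPM (−1.93), above the wild-type means of 0.344 and 0.546 CPM in both genotypes. The summed feeder markers, given above, were lower in the triple mutant too, and their part here was not tested.

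Of 17 p53 target genes 4 rose and none fell (median 0.13), against rises in 24.0% of all genes, so the share of rises was near the background. *Mdm2*, the ubiquitin ligase that restrains p53, had 405, 399 and 409 CPM against 125, 119 and 121 CPM (1.80, SE 0.03). The receptor gene *Eda2r* and the AKT inhibitor gene *Phlda3* rose by 1.36 and 1.19, and the death receptor gene Fas had 0.427 to 1.23 CPM against 0.305 to 0.439 CPM (1.19), with overlapping groups and no call in the set-adjusted contrast. *Cdkn1a*, the p21 gene, had 46.5, 46.7 and 52.8 CPM against 49.2, 52.2 and 50.8 CPM (0.01). Both genotypes lay above the wild-type means of 26.6 and 29.8 CPM for this gene. Of 17 cell cycle genes 1 rose and 4 fell, against 24.0% and 18.4% of all genes. The cyclin gene *Ccnd1* had 23.2, 23.4 and 24.1 CPM against 92.9, 93.0 and 92.0 CPM (−1.91). The kinase gene *Cdk1* was at −1.24 and the helicase subunit gene *Mcm4* at 1.17. Among CDK inhibitors *Cdkn2c* and *Cdkn2a* rose (2.48 and 1.24) and *Cdkn1c* fell (−1.38).

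Of 15 interferon and nucleic acid sensing genes, 12 were tested, of which 2 rose and 6 fell. The RNA sensor gene *Ddx58* (RIG-I) had 122, 117 and 119 CPM against 35.6, 35.6 and 33.7 CPM (1.84), and the DNA sensor gene *Cgas* rose by 1.91 but was not called in the set-adjusted contrast (0.94). *Zbp1*, a sensor of Z-form nucleic acids, had 0, 0 and 0.0388 CPM against 4.39, 4.10 and 3.68 CPM. *Isg15*, a ubiquitin-like modifier, was at 0 in all 3 *Hp1α/β/γΔ/Δ* libraries against 1.31 to 1.47 CPM, which makes it at least 32.6-fold lower at a floor of 3 counts over the group. Sensors and induced genes of the same list therefore moved in both directions.

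**Figure D4:**
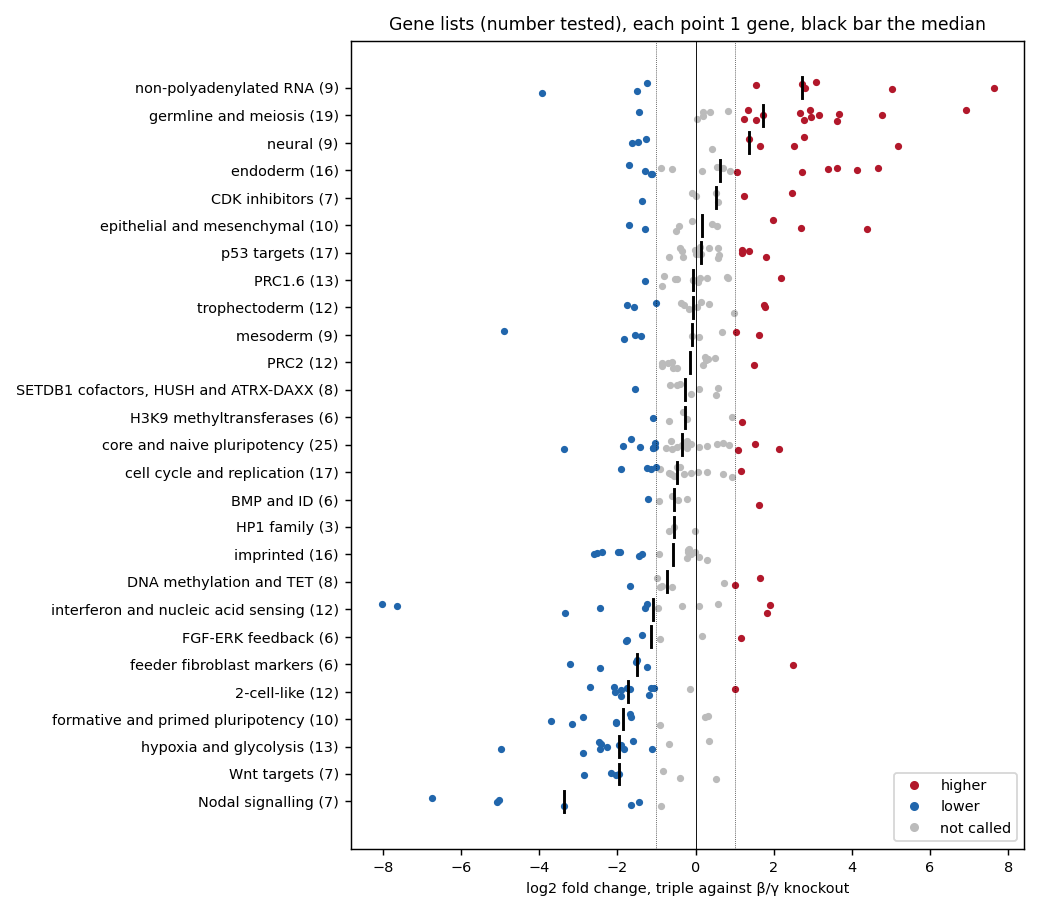
Log2 fold change in *Hp1α/β/γΔ/Δ* cells against *Hp1β/γΔ/Δ* ESCs (x axis) for the genes tested in each of 27 lists (y axis, number tested in brackets), 1 point a gene, red where it rose, blue where it fell and grey where it was not called, with a black bar at the median and dotted lines at 1 and −1. Medians run from −3.37 in *Nodal* signalling to 2.72 in non-polyadenylated RNA, with germline genes at 1.73.

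The list of RNAs without a poly(A) tail stood apart and bears on how the libraries compare. Its 10 genes summed to 322 to 330 CPM in *Hp1α/β/γΔ/Δ* libraries and 19.4 to 28.0 CPM in *Hp1β/γΔ/Δ* libraries. In the triple mutant most of that sum came from *H2bc4*. The linker histone gene *H1f5* had 62.2, 64.6 and 65.7 CPM against 0.351, 0.131 and 0.504 CPM (7.63), and the histone gene *H2bc4* 240, 247 and 240 CPM against 7.81, 7.58 and 7.99 CPM (5.03). All 6 histone genes of the list rose in both contrasts. The short non-coding RNAs *Rmrp*, *Rn7sk* and *Rpph1* fell (−3.94, −1.5 and −1.23), but none was called lower in the set-adjusted contrast, in which *Rn7sk* was called higher (1.81). The labels and the study's methods name different library kits, the latter a stranded total RNA kit, and the part of library preparation in these values was not tested.

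Ranked by fold change among genes that reached 10 CPM, had separated groups and were called in both contrasts, the top 10 rises were *Meox2*, *Spag17*, *Igkv6-32*, *Eqtn*, *Esr1*, *Kcnh5*, *Sorcs1*, *Dlg2*, *Cntnap4* and *Dlx2*. *Meox2*, a mesodermal homeobox gene, had 60.7, 54.5 and 61.6 CPM against 0 in all *Hp1β/γΔ/Δ* libraries, at least 1405-fold higher at a floor of 3 counts over the group. Its wild-type means were 8.16 CPM in set A and 0.282 CPM in set B. In 6 of the 10 genes the lowest set A library exceeded 10 times the highest set B library, so part of these folds stands between the wild-type sets too. *Cntnap4*, a neuronal cell adhesion gene, and *Dlx2*, a forebrain homeobox gene, did not show this. *Cntnap4* had 12.8, 14.8 and 16.6 CPM against 0.0439, 0 and 0.0388 CPM with both wild-type means under 0.05 CPM (8.86, set-adjusted 7.54), and *Dlx2* had 16.1, 13.3 and 14 CPM against 0.0439, 0 and 0.0388 CPM (8.83, set-adjusted 7.68).

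The largest falls by the same rule included *mt-Nd3*, *Clca4a*, *Smim40-ps*, *Lefty1*, *Gbp2*, *Gtsf1*, *Ccdc158*, *Eya2* and *Shisa6*. The mitochondrial gene *mt-Nd3* was at 0 in the triple mutant against 22.3 to 32.5 CPM, at least 626-fold lower at the same floor. Its mean in wild-type set A was 11.9 CPM. By contrast, mt-Atp6 was at 0 in all libraries of the set A table group, wild type included, and was set aside. In *Hp1β/γΔ/Δ* libraries it had 162 to 190 CPM. The counting of mitochondrial genes is therefore doubtful, and its part in the fall of *mt-Nd3* was not tested. *Gbp2*, an interferon-induced GTPase gene, had 0.471, 0.142 and 1.13 CPM against 54.1, 51.1 and 47.3 CPM (−6.29), between 18 and 25.3 CPM in wild type. *Gtsf1*, a piRNA pathway gene, had 0.814, 0.949 and 0.931 CPM against 70.2, 65.3 and 56.9 CPM (−6.08, set-adjusted −3.75), and *Eya2*, a transcriptional co-activator gene, 0.194 to 0.427 CPM against 10.7 to 11.8 CPM (−5.09). In 7 of the 10 falls every set B library also lay above every set A library, as for *Clca4a* with 0.582 and 12.3 CPM in sets A and B, whose log2 fold change of −7.73 was −3.32 in the set-adjusted contrast. Most of these genes were higher in *Hp1β/γΔ/Δ* ESCs than in either wild-type set, as *Shisa6*, an AMPA receptor regulator gene, had 61.7, 66.8 and 62.1 CPM there against wild-type means of 11.9 and 14.7 CPM.

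Along the genome, genes of chromosome 8 were shifted up as a whole. Their median log2 fold change exceeded that of all other genes by 0.54 over 929 genes, of which 35.5% rose and 7.86% fell, and by 0.57 in the set-adjusted contrast. On the log2(CPM + 1) scale the shift was 0.43, 0.45 and 0.43 in the 3 *Hp1α/β/γΔ/Δ* libraries. It was 0.50 in the triple mutant against set A, −0.08 in *Hp1β/γΔ/Δ* ESCs against set B and 0.01 in *Hp1αΔ/Δ* ESCs. Chromosome 6 was next, at 0.30 and 0.29. Of the genes described above, *Zfp42*, *Cdh1*, *Col4a1*, *Tubb3* and *Cntnap4* lie on chromosome 8, and *Cbx3*, *Nanog*, *Dppa3*, *Slc2a3*, *Peg10*, *Tet3* and *Igkv6-32* on chromosome 6. Chromosome 16 was lower in both genotypes than in wild type (−0.35 and −0.45) and in *Hp1αΔ/Δ* ESCs (−0.51), and was 0.16 higher in the direct comparison. In the difference between the backgrounds it was 0.71 higher than all other genes. Without the genes of chromosome 8, 7180 genes were called. The part of these shifts in the change of any single gene was not tested.

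**Figure D5:**
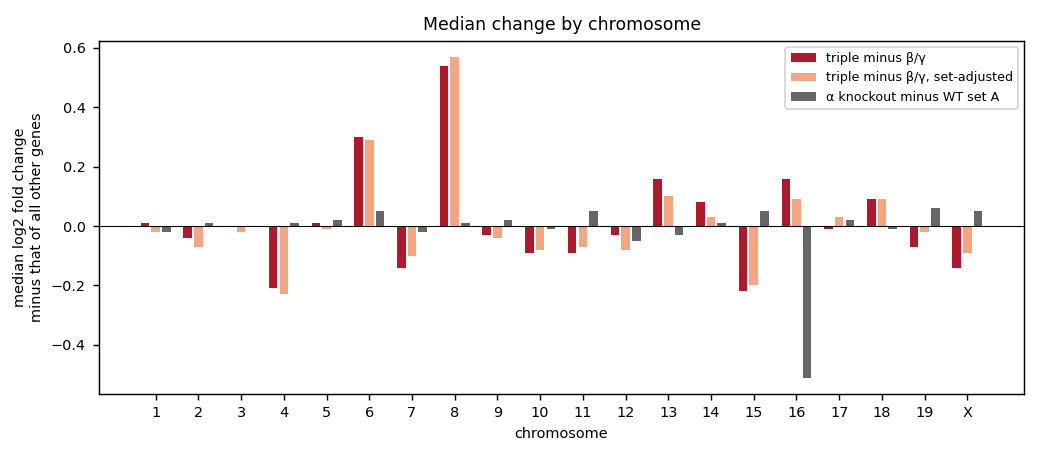
Median log2 fold change of the genes of a chromosome minus that of all other genes (y axis) by chromosome (x axis), for *Hp1α/β/γΔ/Δ* against *Hp1β/γΔ/Δ* (red), the set-adjusted contrast (light red) and *Hp1αΔ/Δ* against wild-type set A (grey). Chromosome 8 reaches 0.54 and 0.57, chromosome 6 0.30 and 0.29, and the grey bar of chromosome 16 −0.51.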

How the data were processed

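RNA-seq libraries of 11 groups, 3 each and 2 of them wild type, were made from total RNA. The authors aligned reads to GRCm38.p5 with TopHat2 2.1.1 and deposited RSEM estimated counts per Ensembl gene in several tables, whose counting differed. The labels name a TruSeq RNA kit and the study's methods a stranded TruSeq total RNA kit, and whether counting used strand is not given in the sources used here. The 27 Hp1 and wild-type libraries were read from 7 deposited files, 54 columns of per-sample values were not used, and the authors' own fold changes and p-values were left out. The 12.6% of values that were not whole were rounded. Genes at 0 in all libraries of a table group were set aside, and names, coordinates and biotypes came from GENCODE M21.

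Differences were tested with edgeR 4.0.16 (R 4.3.3) by quasi-likelihood F-tests after TMM scaling, with filterByExpr at a minimum count of 10 and Benjamini-Hochberg adjustment. Calls needed an adjusted p below 0.05 and an absolute log2 fold change above 1. Exact permutation of 3 against 3 libraries cannot go below p = 0.1 and was not used. On simulated counts of 17691 genes the direct fit recovered 100% of genes changed by 1.5 and by 3 on the log2 scale, and for the set-adjusted contrast (17529 genes) 95% and 100%. False calls were 0 and 6. The simulation used the same spread for every gene and no difference between sets, and left the lowest genes unchanged. It therefore does not cover genes at the lowest levels or the difference between sets.

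The comparison and the 27 gene lists (304 genes) were chosen with earlier results of these data known. Genes were named from these lists and from the 10 largest rises and falls among genes reaching 10 CPM with separated groups and calls in both contrasts, and results of some genes are not reported here. Alternatives were RLE factors, other filters, DESeq2 1.42.0, a replicate block, no setting aside, a joint fit and leaving out libraries. Promoters came from RefSeq tables on GRCm38.p6. Library totals were of similar size, and precision is lowest for genes below 1 CPM.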

Additional observations from a re-analysis of the deposited data

Results flagged for a closer look

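The difference between lines with and without HP1α itself differed between the Hp1β/γ-null and the wild-type background for 7067 genes. The test was the interaction contrast of edgeR's quasi-likelihood F-test, which does not remove the difference between the wild-type sets. The arms of that test also differ in the Cre transfection. Of the list genes described, 15 were selected for calls in opposite directions in the 2 backgrounds. A difference of log2 changes (Hp1β/γ-null minus wild-type background) that passed that test was a condition of the selection, so it adds no support. In 11 of them the gene was lower in *Hp1α/β/γΔ/Δ* than in *Hp1β/γΔ/Δ* cells and rose in *Hp1αΔ/Δ* ESCs. The difference was −5.74 for the growth factor gene *Fgf5*, −5.61 for the homeobox gene *Otx2*, −3.87 for the POU factor gene *Pou3f1* and −3.25 for the Wnt effector gene *Lef1*. It was −4.35 for the imprinted RNA *H19*, −4.08 for the interferon-induced gene *Oas1a*, −3.40 for the Wnt inhibitor gene *Notum*, −2.94 for the collagen gene *Col1a2* and −2.65 for the cyclin gene *Ccnd2*. The non-coding RNAs *Rpph1* and *Rn7sk* had −3.26 and −2.51. In the other 4 the gene rose in the triple mutant and fell in *Hp1αΔ/Δ* ESCs. These were *Cubn*, an endocytic receptor gene (5.40), the synaptonemal complex gene *Sycp1* (4.76), the repressor gene *Snai2* (4.40) and the DNA sensor gene *Cgas* (2.97). In the set-adjusted contrast of the triple mutant against *Hp1β/γΔ/Δ* ESCs, *Col1a2* (0.61, with 1.39 CPM in set A and 6.08 CPM in set B), *Ccnd2* (−0.84), *Rpph1* (−0.45) and *Cgas* (0.94) were not called and *Rn7sk* was called higher (1.81), so the opposite directions of these 5 genes do not hold there.

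Among the genes set aside, 14 had at least 10 counts in each *Hp1α/β/γΔ/Δ* library and none in any other library of that comparison's tables. The olfactory receptor gene Olfr1510 had 188, 152 and 186 counts and the muscarinic receptor gene Chrm5 40, 55 and 60 counts. They were at 0 in every library of the wild-type set B tables, where a gene that was not counted cannot be told apart from one without reads.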

How the results depend on the processing

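The count of 7583 genes called between *Hp1α/β/γΔ/Δ* and *Hp1β/γΔ/Δ* cells stayed within 1.5 times under RLE size factors (7546), DESeq2 (7382), no filter (9184), no setting aside (7756), a joint fit of 27 libraries (7696) and, chosen after seeing the data, without chromosome 8 (7180). It was 4886 when each library had to hold 10 counts of a gene and 14710 on the adjusted p alone. That threshold gave 12294 for the set-adjusted contrast, 3887 between wild-type sets, 12949 for the difference between backgrounds and 7085 for *Hp1αΔ/Δ* ESCs, and the filter of 10 counts gave 386 between wild-type sets and 457 for *Hp1αΔ/Δ* ESCs. Leaving out 1 library at a time gave 7771 to 7930, and 6241 to 6467 for the set-adjusted contrast, 795 to 858 between wild-type sets, 6967 to 7113 for the difference between backgrounds and 693 to 756 for *Hp1αΔ/Δ* ESCs. Same-numbered libraries did not deviate together (r = 0.002, 0.029 and −0.061 over 11623 genes), so the numbers do not pair them. With a replicate block 7565 genes were called, and 99.3% of the calls were kept. Of the named genes *Rn7sk* reversed in the set-adjusted contrast (1.81). Of 78 named genes followed through the settings, 50 stayed the same under the filter of 10 counts, and calls were lost for *Sox2*, *Klf2* and *Zscan4f*. The rest of the 78 did not pass that filter and were not tested under it. A gene at 0 in any library, such as *Meox2*, cannot pass it. Calls were lost for *Duxf3* under 8 settings. In the set-adjusted contrast calls were lost for *Sox2*, *Zscan4f*, *Zfp352*, *Krt8*, *Duxf3*, *Egr1*, *Cgas*, Fas, *Setdb2*, *Ccnd2*, *Col1a2*, *Rmrp* and *Rpph1*. The cause was not tested.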

Other observations

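Gene families outside the lists were defined by symbol after values had been seen, and their counts are descriptions. The Hox genes, which pattern the body axis and are held silent by Polycomb in ESCs, were the clearest group. All *Hp1α/β/γΔ/Δ* libraries lay above all *Hp1β/γΔ/Δ* libraries for 32 of 39 Hox genes and below them for 0, against 29.4% above and 29.6% below over all genes, and 7 were set aside. Their summed level was 73.2 to 78.7 CPM against 2.71 to 2.77 CPM, while *Hp1αΔ/Δ* ESCs had 3.3 to 4.13 CPM and their wild-type set 4.25 to 5.56 CPM. Most reached the test through the triple mutant libraries, so the count of calls is not read. *Hoxa7* had 21.7 to 24.9 CPM against 0 to 0.155 CPM, and *Hoxc13* 4.62 to 7.24 CPM against 0.22 to 0.388 CPM.

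The 68 replication-dependent and linker histone genes summed to 687 to 695 CPM against 83.5 to 89.9 CPM, while the wild-type sets ran from 56.9 to 62.5 CPM and from 58.4 to 66.4 CPM. All *Hp1α/β/γΔ/Δ* libraries lay above all *Hp1β/γΔ/Δ* libraries for 54 of the 68 and below them for 1, against 29.4% and 29.6% over all genes. Of 56 tested, 50 rose and none fell, and 47 rose in the set-adjusted contrast. Some reached the test through the triple mutant libraries, such as *H2ac1* (9.04 to 11 CPM against 0 to 0.0388 CPM), so these calls are not read. Reads of near-identical copies may be split among them, and most of these RNAs lack a poly(A) tail. Mitochondrially encoded protein genes, subunits of the respiratory chain, summed to 7040 to 7643 CPM against 24627 to 27292 CPM, and 11 of 12 tested fell. The cytochrome oxidase gene *mt-Co1* had 3814 to 4074 CPM against 13805 to 15398 CPM. The gene mt-Atp6, at 0 in all libraries of the set A table group, was set aside. Of 77 cytosolic ribosomal protein genes tested 26 fell and 3 rose, and 18 fell in the set-adjusted contrast.

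Over all genes 24.0% rose and 18.4% fell, beside which the counts of these families are read. Among 362 zinc finger genes of the Zfp series 124 rose and 30 fell, and 100 and 28 were called in the set-adjusted contrast. Neurotransmitter receptor genes summed to 311 to 345 CPM against 85.3 to 90 CPM, but some reached the test through the triple mutant libraries, so their calls are not read. The most abundant of them in the triple mutant, *Htr1f* (64.9 to 79.8 CPM against 0 to 0.0436 CPM) and *Chrm2* (48 to 55.2 CPM against 0), had 6.62 and 5.13 CPM in set A and 0 and 0.0148 CPM in set B, and neither was called in the set-adjusted contrast. The GABA receptor subunit gene *Gabrr1* had 27.3 to 29.4 CPM against 0.395 to 0.698 CPM. Of 38 collagen genes 16 fell, 8 rose and 14 were not called.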
